A study of Mus musculus with 40 samples.

Results

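Both lysine mutants of the histone variant H2A.Z.1 were compared with the wild-type form in the mouse hippocampus. The comparison pooled every library whose title ended in KD+KA or KD+KQ, 16 mice, and set them against every library whose title ended in KD+WT, 9 mice, so that 25 of the 40 libraries of the series took part. H2A.Z is a variant of histone H2A that replaces it in a fraction of nucleosomes, mostly around transcription start sites. Lysines on its N-terminal tail can be acetylated, a mark found at active promoters, and bromodomain proteins read acetylated lysines on histone tails. Alanine cannot be acetylated, whereas glutamine carries no charge and is used to mimic acetyl-lysine. The pooled comparison asks what the mice given either substitution share against mice given WT.

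All 25 mice carried floxed alleles of both H2A.Z genes, *H2afz* (H2A.Z.1, now *H2az1*) and *H2afv* (H2A.Z.2, now *H2az2*), and received Cre under the Synapsin promoter, which is active in neurons, by bilateral AAV injection into the hippocampus. The same injection carried 3xMyc-tagged H2A.Z.1 under the CMV promoter, which is not restricted to neurons. KA mice (4 females, 4 males) received the form in which lysines 4, 7 and 11 were changed to alanine (KA), KQ mice (3 females, 5 males) received the form in which they were changed to glutamine (KQ), and WT mice (4 females, 5 males) received the unchanged form. For scale, 8 mice with Cre and no H2A.Z.1 (libraries labelled KD, called KO mice here) and 7 Myc-tag control mice without Cre were used. The sources used here do not say whether the sequenced mice had been trained in the study's memory tasks, the labels do not give their age, and each library was bulk hippocampal RNA of 1 mouse, in which fewer cells of a type and less RNA per cell cannot be told apart. Defining markers of hippocampal neurons were detected in all 25 libraries, with summed levels of 3040 to 5390 CPM (counts scaled to the library's total) in mutant mice and 2910 to 4860 CPM in WT mice.

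The coding starts of the 2 mouse H2A.Z genes show what was altered. In GENCODE transcripts on GRCm39, the first 45 coding bases of *H2az1* lie on chromosome 3 between 137570455 and 137570935 (plus strand) and those of *H2az2* on chromosome 11 between 6389412 and 6394339 (minus strand), in both genes over the first 2 coding exons. The capitals mark the codons of lysines 4, 7 and 11, counted without the initiator methionine:
H2az1: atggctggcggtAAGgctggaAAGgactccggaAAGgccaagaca
H2az2: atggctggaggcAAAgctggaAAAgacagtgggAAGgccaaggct
The genes are identical at 35 of these 45 bases and both encode lysine at the 3 positions. In the KA virus the capitalised codons of H2A.Z.1 were GCC and in the KQ virus CAA. The rest of the viral reading frame is not given in the sources used here.

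Libraries held 26221299 to 45982772 counts in mutant mice (median 38152409) and 27928823 to 42818051 counts in WT mice (median 36476894). Sample numbers in the titles split the 25 mice into 5 mutant and 4 WT mice with numbers 1 to 20, 8 and 4 with numbers 21 to 40, and 3 and 1 with numbers 41 to 46. The labels do not say what the numbers stand for. With edgeR's quasi-likelihood test, 2491 of 28449 genes (8.76%) differed between numbers 1 to 20 and 21 to 40 (adjusted p under 0.05, sex and mutant status in the model). Values within the 2 larger ranges are given beside several of the pooled ones. The sum of immunoglobulin genes ran from 56.1 to 2180 CPM in mutant mice and from 72.5 to 1140 CPM in WT mice. *Ttr*, a choroid plexus gene, exceeded 1000 CPM in 1 mutant mouse, KQ female 17 (2420 CPM), and in 1 WT mouse, WT female 20 (4100 CPM).

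The H2A.Z transcripts themselves were at like levels in mutant and WT mice. *H2az1* ranged from 33.1 to 50.1 CPM in the 16 mutant mice (median 39.3) and from 32.7 to 47.7 CPM in the 9 WT mice (median 38.5), and the groups overlapped over nearly their whole range. Its log2 fold change was -0.00405 (95% interval -0.16 to 0.15, edgeR adjusted p = 1). Counts for *H2az1* can hold reads of the endogenous gene and of the viral transcript, which encodes the same histone. *H2az2*, which the virus does not carry, ranged from 19.5 to 28.4 CPM in mutant mice (median 24.8) and from 22.4 to 28.3 CPM in WT mice (median 25.3), a log2 fold change of -0.07 (95% interval -0.19 to 0.05, edgeR adjusted p = 0.997). KO and Myc mice averaged 31.3 and 32.6 CPM of *H2az1*, and 26.8 and 23.2 CPM of *H2az2*. The KO over Myc log2 fold changes were -0.03 (edgeR adjusted p = 0.888) and 0.23 (edgeR adjusted p = 0.0346). The paper reported reduced *H2afz* mRNA in KO mice and reduced *H2afv* mRNA in all groups given Cre. It also reported more *H2afz* mRNA than in Myc controls in mice given WT, KA or KQ. *H2az1* averaged 40.1 CPM in mutant and 40.2 CPM in WT mice here. The paper attributed the small decrease in bulk tissue to low sensitivity for a knockout in neurons, and found a strong loss of H2A.Z in cultured neurons. For *H2az2* the KO counts here went the other way. Which exons Cre removes is not given in the sources used here, so these CPM totals are no check of the deletion.

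**Figure D1:**
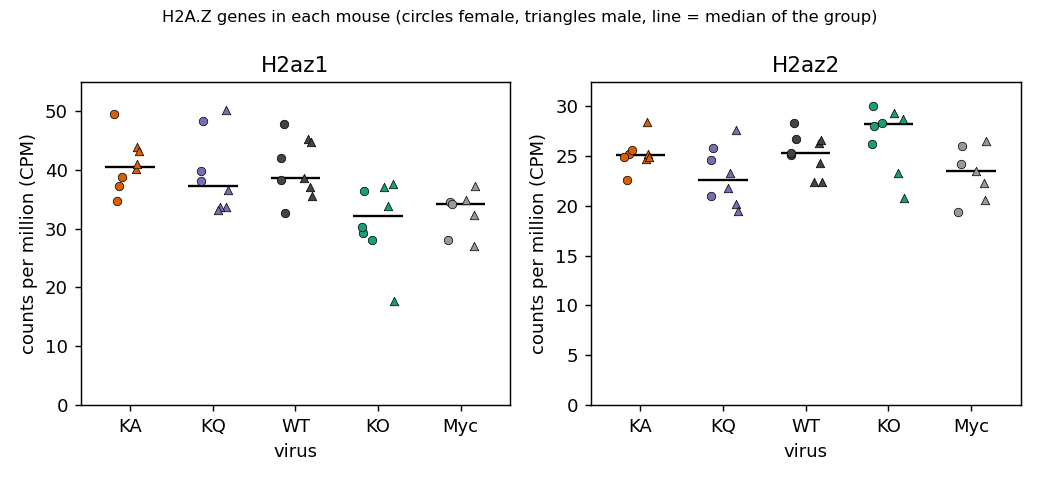
*H2az1* at left and *H2az2* at right in CPM for each of the 40 mice, by virus, with circles for females, triangles for males and a line at the group median. The KA, KQ and WT mice spread over one range, 32.7 to 50.1 CPM for *H2az1*.

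Mutant mice did not differ from WT mice in any gene at the threshold used. Of 28449 genes tested with edgeR's quasi-likelihood test (sex as a covariate, Benjamini-Hochberg adjustment), 0 (0%) had an adjusted p under 0.05, and the smallest adjusted p was 0.149. That value belonged to *Iltifb*, an interleukin-22 gene copy named here after its value was seen, which averaged 0.0244 CPM over the 25 libraries. At an unadjusted p under 0.05 there were 1290 genes (4.53%), 593 higher (2.08%) and 697 lower (2.45%), where an even spread of p-values would place 1422. DESeq2 on the same libraries called 3 genes, all higher in mutant mice, among them *Igkv6-32* and *Lcmt2*. Within sample numbers 1 to 20 alone edgeR called 12 genes, and within 21 to 40 alone 0 (395 higher and 556 lower at an unadjusted p under 0.05). For scale, the same test found 12 genes (0.0422%) between males and females of these 25 mice and 11633 genes (40.9%) between KO and Myc mice, 6602 higher (23.2%) and 5031 lower (17.7%).

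The comparison was precise enough to bound most changes in genes of at least 1 CPM. The median standard error of a log2 fold change was 0.155 over all genes tested and 0.074 over the 15786 genes with a mean of at least 1 CPM. In 91.8% of those genes the whole 95% interval lay within ±0.5, and in 98.6% within ±1. Over all genes tested these shares were 54% and 72.1%. The median log2 fold change over all genes tested was 0.00501, with 51.9% of genes positive.

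**Figure D2:**
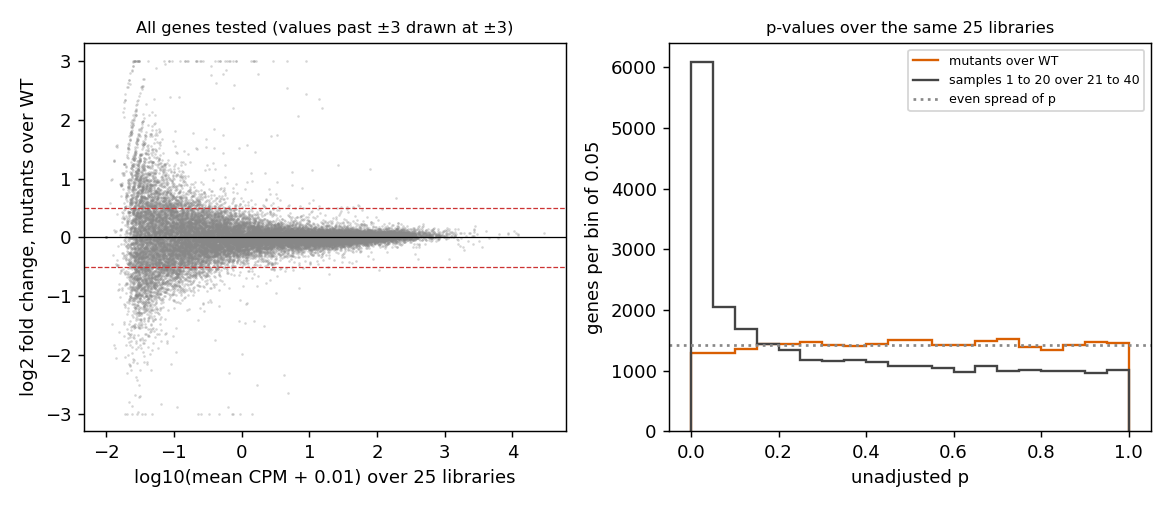
Left, log2 fold change of mutants over WT against log10 of the mean CPM (0.01 added) for 28449 genes, with dashed lines at ±0.5. Right, number of genes per unadjusted p bin of 0.05 for mutants over WT and for sample numbers 1 to 20 over 21 to 40 in the same 25 libraries; the first is near the dotted even level, and the second rises in the lowest bin to 6089 genes.

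The mutants taken singly gave the same count. KA mice against WT mice gave 0 genes at an adjusted p under 0.05 (1653 at an unadjusted p under 0.05, 5.81%; smallest adjusted p 0.191), and KQ mice against WT mice gave 0 (1172, 4.12%; smallest adjusted p 0.996). These comparisons share the WT mice. KA mice against KQ mice, the comparison behind the pooling, also gave 0 (1699, 5.97%; smallest adjusted p 0.525). DESeq2 called 4, 0 and 0 genes in these comparisons, the 4 being *Rasgef1c*, *Igkv6-32*, *Nipal2* and *Gm38592* in KA over WT. In males 0 genes passed (1055 at an unadjusted p under 0.05, 3.71%), and DESeq2 called 5: *Ighv1-81*, *Igkv6-13*, *A330023F24Rik*, *Dok3* and *Gm38592*. Tested between the sexes, the effect of the mutants differed in 0 genes (934, 3.28%), and DESeq2 called 2, both immunoglobulin genes (*Ighv1-81* and *Igkv6-13*).

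In females 1 gene passed (0.00352% of those tested; 4.37% had an unadjusted p under 0.05): *Rasgef1c*, which encodes a protein with a Ras guanine nucleotide exchange factor domain and lies on chromosome 11 at 49792247 to 49871822 (GRCm39, plus strand, no other annotated gene overlapping). It had 0.957 to 1.22 CPM in the 7 mutant females (median 1.09) and 1.85 to 2.78 CPM in the 4 WT females (median 2.45), so that every mutant female was below every WT female. The log2 fold change in females was -1.14 (edgeR adjusted p = 0.0302). In males it had 0.836 to 2.03 CPM in mutants (median 1.03) and 1.33 to 1.80 CPM in WT mice (median 1.5), overlapping groups with a log2 fold change of -0.38 (edgeR adjusted p = 1, unadjusted p = 0.0297). The difference between the sexes was -0.76 (95% interval -1.28 to -0.25, unadjusted p = 0.00521, edgeR adjusted p = 1). The gene is low, about 1 CPM, and the call in females was lost when any of 10 of the 11 females was left out in turn, the exception being WT female 40, and with the sample number range in the model (adjusted p = 0.0558). The log2 fold change itself stayed between -1.24 and -1.07 when any 1 mouse was left out and was -1.14 with the range in the model. DESeq2 also called the gene in females (-1.15, DESeq2 adjusted p = 2.87e-05).

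Pooled over sexes, *Rasgef1c* had 0.836 to 2.03 CPM in the 16 mutant mice (median 1.05) and 1.33 to 2.78 CPM in the 9 WT mice (median 1.80). All 8 KA mice, at 0.836 to 1.11 CPM, were below the lowest WT mouse, whereas KQ mice reached 2.03 CPM; 14 of the 16 mutant mice lay below all WT mice. Its log2 fold change was -0.70 (95% interval -1.02 to -0.38), with an edgeR adjusted p of 0.557. KA over WT gave -0.94, KQ over WT -0.48, and KA over KQ -0.46 (unadjusted p = 0.0155, edgeR adjusted p = 0.816). Within sample numbers 1 to 20 the log2 fold change was -1.05 and within 21 to 40 it was -0.60. Weighting KA and KQ equally over the 6 groups of sex and construct gave -0.76 with an adjusted p of 0.0381, the 1 gene called in that fit. In KO over Myc mice its log2 fold change was -0.16 (adjusted p = 0.671).

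The other genes with the smallest p-values, 10 in each direction among genes of at least 1 CPM, are given as values, since none passed (adjusted p 0.557 to 0.997). They were picked by p-value in these same mice, so a separation of the groups follows in part from the choice. *Lcmt2*, a gene for a leucine carboxyl methyltransferase family protein that acts in wybutosine synthesis on tRNA (chromosome 2, 120958460 to 120971145), had 5.63 to 7.57 CPM in mutant mice (median 6.52) and 4.34 to 6.76 CPM in WT mice (median 5.05). All 16 mutant mice were above the WT median. Its log2 fold change was 0.33 (95% interval 0.18 to 0.48, edgeR adjusted p = 0.557), 0.49 in sample numbers 1 to 20 and 0.18 in 21 to 40.

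The long noncoding RNA gene *A330023F24Rik* (chromosome 1, 194658636 to 194720212, plus strand) had the smallest p-value among the genes that were lower. It contains the annotated miRNA genes *Mir29b-2* and *Mir29c* on its own strand and overlaps *Cd46* on the opposite one. It had 65.9 to 90.8 CPM in mutant mice (median 76.1) and 78.2 to 105 CPM in WT mice (median 88.2), and 15 of 16 mutant mice were below the WT median. The log2 fold change was -0.25 (95% interval -0.36 to -0.14, edgeR adjusted p = 0.557), -0.26 in KA and -0.23 in KQ over WT. Mature miRNAs were not measured in these libraries.

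Several further genes, picked in the same way, separated most mice with small differences. *Rbm11*, which encodes a tissue-restricted splicing regulator, had 4.95 to 8.43 CPM in mutant mice (median 7.20) and 4.68 to 6.87 CPM in WT mice (median 5.56), a log2 fold change of 0.34 (edgeR adjusted p = 0.627). *Mphosph6*, a cofactor of the RNA exosome, had 16.5 to 19.3 CPM in mutant mice and 14.6 to 17.4 CPM in WT mice, a log2 fold change of 0.16 with 14 of 16 mutant mice above every WT mouse (adjusted p = 0.693). *Per1*, a core circadian clock gene, had 39.3 to 68.2 CPM in mutant mice (median 55.5) and 54.1 to 79.5 CPM in WT mice (median 64.7), a log2 fold change of -0.23 (adjusted p = 0.693), at -0.39 in sample numbers 1 to 20 and -0.16 in 21 to 40. Clock genes vary with the hour of tissue collection, which the labels do not give. *Pdzd7*, a scaffold gene of hair cell stereocilia, had 3.37 to 5.42 CPM in mutant mice (median 4.24) and 5.01 to 6.02 CPM in WT mice (median 5.32), with 12 of 16 mutant mice below every WT mouse and a log2 fold change of -0.34 (adjusted p = 0.693).

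The rest of the 20 spanned log2 fold changes of 0.12 to 4.65 upwards and -0.18 to -0.72 downwards. *Gm39701* was among the most evenly separated, with 1.33 to 2.43 CPM in mutant mice and 1.23 to 1.70 CPM in WT mice and 15 of 16 mutant mice above every WT mouse (log2 fold change 0.40, edgeR adjusted p = 0.693). *Igkv6-32*, an immunoglobulin kappa variable segment used by some B cell clones, had 0 to 72.0 CPM in mutant mice (median 2.57) and 0 to 1.98 CPM in WT mice (median 0.158); its log2 fold change of 4.65 had a 95% interval of 2.05 to 7.24 (adjusted p = 0.942) and rests on the 8 mutant mice above every WT mouse. *Rbm3-ps* (log2 fold change 0.21) is a processed pseudogene, whose reads may be shared with its parent gene, and is uncertain for that reason. *Tceal8*, *Gm11613* and *Gm33777* were higher by 0.12, 0.19 and 0.38 in log2 fold change, and *Gm38592*, *3110056K07Rik*, *Ahsa2*, *Fbxw23*, *Arrdc2* and *Tincr* had log2 fold changes of -0.52, -0.25, -0.18, -0.72, -0.30 and -0.43. Across both sample number ranges the direction of each of the 20 was the same as in the pooled fit, from which they were chosen. That fit holds the mice of both ranges, so the shared direction is no independent check.

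**Figure D3:**
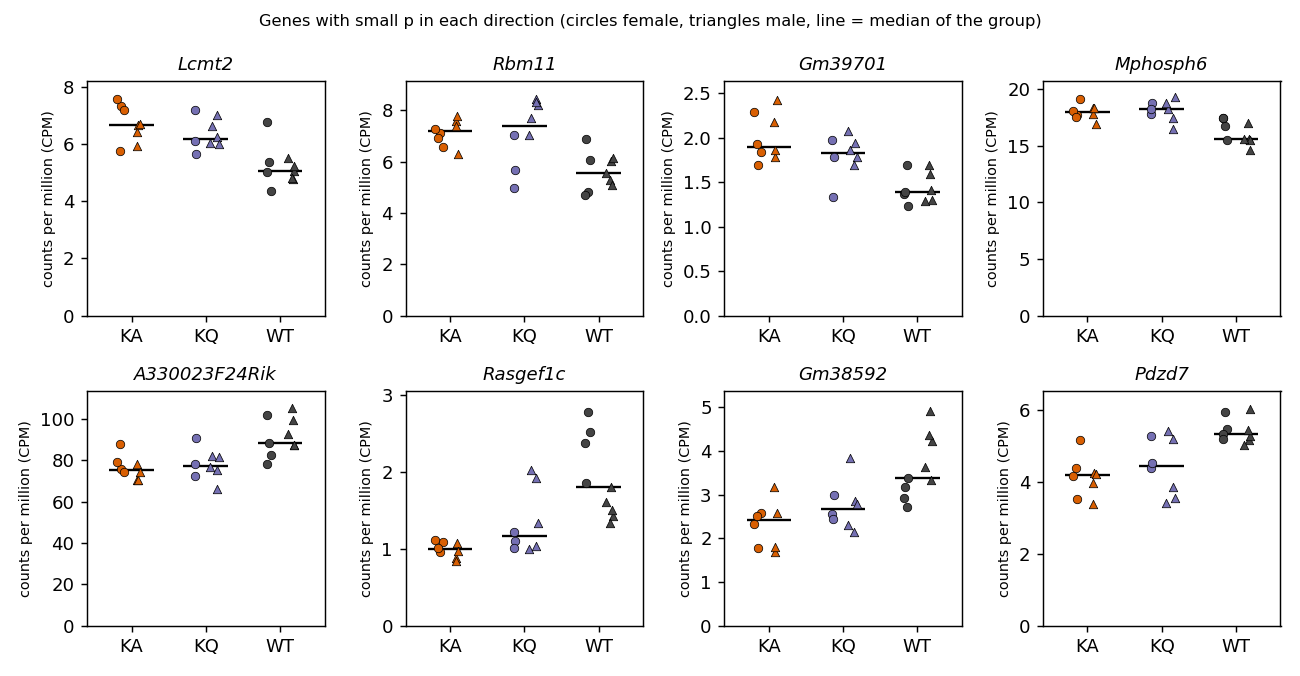
CPM in each mouse of 4 genes that were higher (top) and 4 that were lower (bottom) in mutant mice with small unadjusted p-values, by virus, with circles for females, triangles for males and a line at the median. The KA and KQ medians lie to the same side of the WT median in each panel, and the ranges overlap, as for *Rasgef1c* where KQ mice reach 2.03 CPM.

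Immediate early genes are transcribed within minutes of neuronal activity, and *Arc*, *Fos* and *Nr4a1* are widely used as readouts of it. None of the 25 tested was called, and the pooled estimates leaned to lower values in mutant mice: 20 of 25 were negative, with a median log2 fold change of -0.15 against 0.00501 over all genes. Lower values at an unadjusted p under 0.05 were seen for 7 of 25, beside 2.45% of all genes, and none was higher at that p. The genes were *Arc*, *Fos*, *Nr4a1*, *Dusp1*, *Ier2*, *Dusp5* and *Sik1*, of which the last 3 were chosen for naming after their values were seen, as were *Npas4*, *Egr1* and *Bdnf*. They respond to one stimulus together and are not independent of each other. In KO over Myc mice the median log2 fold change over the list of 25 was 0.44.

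*Arc*, whose product regulates AMPA receptor endocytosis at synapses, had 47.5 to 156 CPM in mutant mice (median 93.3) and 65.2 to 190 CPM in WT mice (median 141). The ranges overlapped widely, with 15 of 16 mutant mice below the WT median, and the log2 fold change was -0.55 (95% interval -0.96 to -0.14, unadjusted p = 0.0108, edgeR adjusted p = 0.997). *Fos*, which encodes a subunit of the AP-1 transcription factor, had 4.54 to 20.5 CPM in mutant mice (median 11.4) and 8.12 to 34.5 CPM in WT mice (median 15.5). Its log2 fold change was -0.46 (95% interval -0.83 to -0.10, unadjusted p = 0.0147, edgeR adjusted p = 0.997), and 13 of 16 mutant mice were below the WT median. *Nr4a1*, an orphan nuclear receptor gene, had 22.3 to 60.8 CPM in mutant mice (median 38.7) and 28.9 to 80.7 CPM in WT mice (median 52.1). *Dusp1*, which encodes a phosphatase that switches off MAP kinases, had 6.67 to 16.5 CPM in mutant mice (median 12.2) and 9.05 to 23.3 CPM in WT mice (median 15.1). In both genes 15 of 16 mutant mice were below the WT median, and the log2 fold changes were -0.44 and -0.40 (edgeR adjusted p = 0.997 for each).

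Other members were less far from 0 or more spread. *Ier2*, *Dusp5* and *Sik1* had log2 fold changes of -0.32, -0.31 and -0.22, and *Npas4*, a neuron-specific activity factor, -0.32 (95% interval -0.74 to 0.11). *Egr1*, a zinc finger factor of memory consolidation, had 82.0 to 227 CPM in mutant mice and 94.7 to 226 CPM in WT mice, a log2 fold change of -0.24 (95% interval -0.54 to 0.06). *Bdnf*, the gene of brain-derived neurotrophic factor, ran the other way, with 37.9 to 121 CPM in mutant mice and 52.8 to 89.3 CPM in WT mice and a log2 fold change of 0.17 (95% interval -0.13 to 0.46). The median over the list was -0.07 in KA over WT and -0.28 in KQ over WT, with 1 of 25 lower at an unadjusted p under 0.05 in KA over WT (3.63% of all genes) and 12 of 25 in KQ over WT (1.95%), comparisons that share the WT mice. KA over KQ, with a median of 0.15, had 2 of 25 higher at that p (2.2% of all genes) and 0 called.

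The lean was unequal over the sample numbers. Within numbers 1 to 20 the list's median log2 fold change was -0.32, with 3 of 25 lower and 1 higher at an unadjusted p under 0.05 (4.09% and 4.34% of all genes in that range), and within 21 to 40 it was -0.0124, with 0 in either direction (1.95% lower and 1.39% higher). *Arc* gave -0.74 and -0.29, *Fos* -0.54 and -0.17, *Nr4a1* -0.65 and -0.19, and *Dusp1* -0.69 and -0.18 in the 2 ranges. Without WT female 19 the pooled count at that p was 3 of 25 instead of 7, and without WT male 29 it was 10. Leaving out any 1 mouse kept the median between -0.22 and -0.10.

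**Figure D4:**
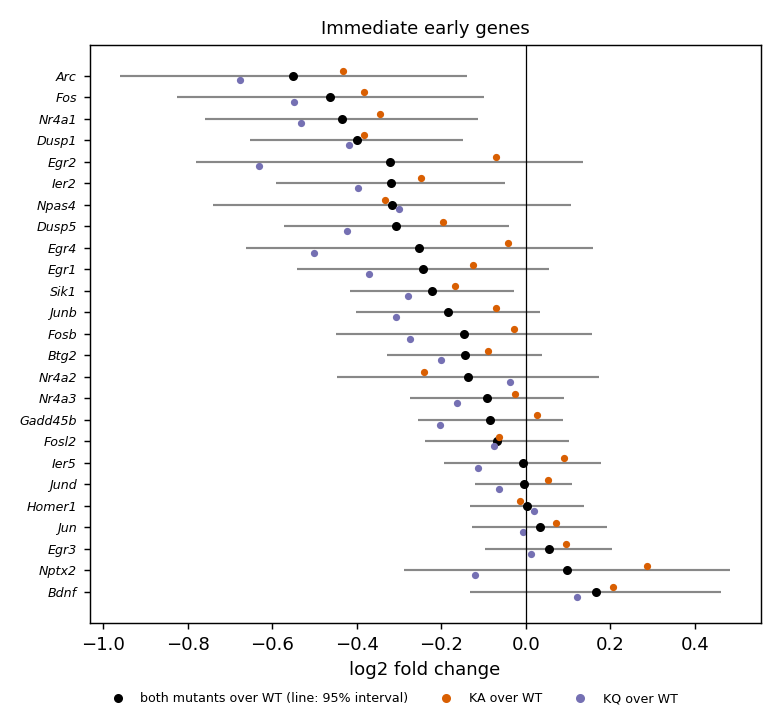
Log2 fold changes of 25 immediate early genes, with both mutants over WT in black and its 95% interval as a line, KA over WT in orange and KQ over WT in purple. The black points of 20 genes are left of 0, from -0.55 for *Arc*, and the interval of 7 genes does not reach 0.

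Genes that handle H2A.Z or histone acetylation stayed near 0. Of 22 genes that deposit or remove H2A.Z, 0 were called, and their log2 fold changes ran from -0.11 to 0.09 with a median of -0.02. The extremes were *Meaf6*, a subunit of acetyltransferase complexes including NuA4, at 96.0 to 119 CPM in mutant mice and 106 to 121 CPM in WT mice (log2 fold change -0.11, 95% interval -0.19 to -0.03, edgeR adjusted p = 0.997), and *Morf4l1*, a chromodomain subunit of the same complex, at 0.09 (adjusted p = 0.997). H2A.Z and other histone variants together had a median of 0.00027 over 10 genes, with the smallest p among them for *H3f3b*, a gene of histone H3.3, at 0.08 (95% interval -0.01 to 0.17). Bromodomain readers and H2A.Z-bound factors had a median of 0.03 over 11 genes, and lysine acetyltransferases 0.00865 over 10 genes. Of 16 histone deacetylase genes 0 were called, with *Hdac9* at -0.15 and *Hdac2* at 0.09 the nearest (unadjusted p = 0.0487 and 0.0491).

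Synaptic and channel genes, whose products set excitability and transmission in hippocampal neurons, stayed near 0 as groups. The median log2 fold change was 0.05 over 23 glutamate receptor genes, 0.05 over 24 postsynaptic density genes, 0.04 over 28 presynaptic release genes, 0.000521 over 25 potassium channel genes, 0.03 over 24 sodium, calcium and HCN channel genes, and 0.05 over 22 GABA-A receptor and interneuron genes, with 0 called in each. In the KO over Myc comparison the medians of the same lists were -0.30, -0.45, -0.62, -0.45, -0.51 and -0.41. *Gria1*, the GluA1 subunit of AMPA receptors, had 835 to 1340 CPM in mutant mice (median 1160) and 739 to 1140 CPM in WT mice (median 1050), a log2 fold change of 0.16 (95% interval -0.02 to 0.34). *Grik3*, a kainate receptor subunit, had 19.3 to 45.4 CPM in mutant mice (median 26.7) and 23.7 to 47.0 CPM in WT mice (median 35.3), a log2 fold change of -0.28 (95% interval -0.57 to 0.00258), at -0.63 in sample numbers 1 to 20 and -0.07 in 21 to 40. The postsynaptic density median was -0.04 in the first range and 0.06 in the second. Among those at an unadjusted p under 0.05 were *Doc2a*, a calcium sensor of spontaneous release (-0.23), *Syn3*, a synapsin (0.20), *Kcnn3*, an SK channel (0.25), and *Kcna3*, a Kv1 channel (0.41), each with an edgeR adjusted p of 0.997.

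Subfield and cell type lists were likewise uncalled. Dentate granule cell genes had 12 of 13 positive values and a median of 0.13, with the defining factor *Prox1* at 77.0 to 188 CPM in mutant mice (median 148) and 108 to 151 CPM in WT mice (median 128), a log2 fold change of 0.20 (edgeR adjusted p = 0.997). CA1 genes had a median of 0.10 over 11, and CA3 and CA2 genes 0.05 over 16. Genes of adult neurogenesis had a median of 0.12 over 13. Oligodendrocyte lineage genes had 16 of 17 negative values and a median of -0.12, led by *Olig2*, a lineage factor, at -0.16 (unadjusted p = 0.0325, adjusted p = 0.997). In females the median was -0.32, with 10 of 17 lower at an unadjusted p under 0.05 (3.03% of all genes), and in males it was -0.00371, with 0 of 17. Within sample numbers 21 to 40 it was -0.26, with 9 of 17 lower at that p (1.95% of all genes), and within 1 to 20 it was -0.06, with 1 of 17. The difference between the sexes was not tested for the list, whose members are not independent of each other. Ribosomal protein genes (40 tested) had a median of 0.05, at 0.15 in KA and -0.04 in KQ over WT, and respiratory chain genes (38 tested) 0.00581, with *Ndufb3*, a complex I subunit, at 0.09 (unadjusted p = 0.038).

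Among the remaining cell types and processes, the medians were 0.00653 for astrocyte, -0.06 for ependymal, -0.02 for endothelial, 0.06 for mural cell and fibroblast, -0.15 for blood, 0.05 for thalamus and striatum, 0.01 for collagen, 0.03 for DNA replication and -0.01 for p53 response genes, with 0 called in each.

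Choroid plexus genes moved with single mice. All 20 tested were negative with a median log2 fold change of -0.40, none had an unadjusted p under 0.05, and the summed level ran from 223 to 4030 CPM in mutant mice (median 425) and from 266 to 7090 CPM in WT mice (median 390). Without WT female 20 the median was 0.47 with all 20 positive, without KQ female 17 it was -0.86, and without both it was 0.07. The median was -1.34 in females and 0.52 in males. With the choroid plexus level as a covariate in the pooled fit, 0 genes were called and the immediate early genes had a median of -0.16.

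Immune genes leaned upwards in the pooled estimate without a call. In KO over Myc mice the median log2 fold changes were 4.3 for MHC, 4.28 for interferon response and 5.49 for T and NK cell genes. *B2m* averaged 1580 CPM in KO and 134 CPM in Myc mice. Genes of MHC and antigen presentation were positive in 23 of 23, with a median log2 fold change of 0.22, and interferon response genes in 35 of 36, with a median of 0.18. In neither list was any member at an unadjusted p under 0.05. The interferon median was 0.33 in KA over WT (36 of 36 positive) and 0.00994 in KQ over WT (20 of 36), comparisons that share the WT mice. In KA over KQ it was 0.28, with 35 of 36 positive. The MHC median was 0.33 in KA over WT and 0.16 in KQ over WT. *B2m*, which encodes the invariant chain of MHC class I molecules, had 273 to 1060 CPM in mutant mice (median 430) and 331 to 559 CPM in WT mice (median 435). The medians were alike and the upper end was reached only by mutant mice, and the log2 fold change of 0.22 had a 95% interval of -0.16 to 0.60. *Iigp1*, an interferon-inducible GTPase, had 23.2 to 187 CPM in mutant mice (median 44.4) and 23.9 to 79.7 CPM in WT mice (median 37.1), a log2 fold change of 0.55 (95% interval -0.17 to 1.28). *H2-Q7*, an MHC class Ib gene with near-identical relatives that can share reads, was at 0.44 (95% interval -0.13 to 1.01).

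T and NK cell genes had a median of 0.36 over 24 genes, with 23 positive and 4 at an unadjusted p under 0.05, beside 2.08% of all genes in that direction. *Cd3d*, a chain of the T cell receptor complex, had 0.152 to 1.4 CPM in mutant mice (median 0.520) and 0.103 to 0.520 CPM in WT mice (median 0.356), a log2 fold change of 0.84 (95% interval 0.17 to 1.51, edgeR adjusted p = 0.997). *Cd2*, a T cell adhesion receptor, was at 0.66 (adjusted p = 0.997). Of the chemokine system, the chemokine receptor of T cells *Cxcr3* and its ligand *Cxcl11* were at 0.79 and 0.90 (adjusted p = 0.997 for each). The medians of all 4 genes were under 1 CPM in mutant and in WT mice. The count of 4 fell to 1 when any of KA male 5, KQ male 8, WT male 9, KA female 16, KQ female 17, WT male 29 or WT male 46 was left out, and to 2 without KA female 15, KQ male 27 or WT female 40.

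These immune values were unequal over the sample numbers. Within numbers 1 to 20 (5 mutant and 4 WT mice), the medians were 0.72 for MHC genes, 0.55 for interferon genes and 0.98 for T and NK cell genes, with 22 of 23, 31 of 36 and 19 of 24 higher at an unadjusted p under 0.05, against 4.34% of all genes there. Within numbers 21 to 40 (8 and 4 mice) they were -0.03, 0.03 and -0.03, with 0 at that p in each list. In both ranges 0 members of these lists had an adjusted p under 0.05. Outside these lists, the immune cell genes *Ptprc* and *Adgre1* were called within numbers 1 to 20. Their log2 fold changes there were 0.578 and 0.53 (edgeR adjusted p = 0.0311 and 0.0365). The rest of the 12 genes called in that range were lower in mutant mice. In the pooled fit *Ptprc* and *Adgre1* were at 0.105 and 0.151 (edgeR adjusted p = 0.997 for each). With the sample number range as a covariate in the pooled fit, the medians of the MHC, interferon and T and NK cell lists were 0.251, 0.245 and 0.359. In that fit 4 of 23, 6 of 36 and 7 of 24 were higher at an unadjusted p under 0.05, with 0 called. The share of all genes at that p was not computed for it. Members of one list are not independent of each other. Leaving out KA male 5 alone gave pooled medians of 0.0991, 0.0787 and 0.18. In females the T and NK cell median was 0.05, and in males 0.57. B and plasma cell genes had a median of 0.46 over 18 genes, complement genes 0.05 over 17. Phagocytic microglia genes had a median of 0.09 over 23, homeostatic microglia genes 0.04 over 14 and reactive glia genes 0.12 over 20, none called.

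Genes that the study followed by name did not pass either. The paper named *Kiss1r*, *Kcnc1*, *Dkk2* and *Mfng* from KA against KQ, not from pooled mutants against WT. It followed *B2m*, *Th*, *Fkbp5*, *Arc*, *Fos* and *Gadd45b* by ChIP-qPCR of acetylated H2A.Z between the sexes, not by RNA. The pooled values are therefore no test of those results. *Kiss1r*, the kisspeptin receptor gene, had 2.81 to 5.79 CPM in mutant mice (median 3.63) and 3.6 to 4.65 CPM in WT mice (median 3.86), a log2 fold change of -0.06 that joined -0.21 in KA and 0.08 in KQ over WT. KA over KQ was -0.28 (95% interval -0.50 to -0.06, unadjusted p = 0.013, edgeR adjusted p = 0.816). *Kcnc1*, a Kv3 potassium channel gene, was at -0.05 pooled, -0.15 in KA and 0.04 in KQ over WT, and -0.19 in KA over KQ (unadjusted p = 0.00322, adjusted p = 0.816). *Mfng*, a fringe enzyme that modifies Notch, had 2.59 to 6.10 CPM in mutant mice (median 4.02) and 2.93 to 3.93 CPM in WT mice (median 3.49); it was at 0.15 pooled, 0.34 in KA and -0.07 in KQ over WT, and 0.41 in KA over KQ (unadjusted p = 0.00282, adjusted p = 0.816). *Dkk2*, a secreted Wnt regulator, was at -0.03 pooled (95% interval -0.39 to 0.33), 0.12 in KA and -0.21 in KQ over WT. In these 4 genes the KA and KQ values against the WT mice they share had opposite signs. The rest of the named genes were *Fkbp5*, a glucocorticoid response gene, at 0.03 (95% interval -0.16 to 0.21), *Gadd45b*, at -0.08 (95% interval -0.26 to 0.09), and the dopamine synthesis gene *Th*, at -0.22 (95% interval -0.64 to 0.20).

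Among signalling lists, Wnt genes had a median of -0.04 over 41 and Notch genes 0.02 over 22, with 0 called. *Dkkl1*, a dickkopf-like gene, had 0.393 to 2.19 CPM in mutant mice (median 0.725) and 0.211 to 3.04 CPM in WT mice (median 1.21), a log2 fold change of -0.82 (unadjusted p = 0.0172, edgeR adjusted p = 0.997). It was at 0.00649 within sample numbers 21 to 40. Wnt proteins and Notch both act in hippocampal development and plasticity.

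The final comparison asked whether the mutants restored the genes that deletion alters as far as WT H2A.Z.1 did. The genes were chosen in the KO and Myc libraries, which are not in the comparison of mutants with WT. Of 6602 genes higher in KO mice, 0 were called in mutants over WT, 56.0% were positive and the median log2 fold change was 0.0165. Of 5031 genes lower in KO mice, 0 were called, 55.8% were positive and the median was 0.0107. Over all genes tested 51.9% were positive, and 53.8% of those with a mean of at least 1 CPM. As 0 genes were called over all, the 0 in each set follows from that. Among genes past an absolute log2 fold change of 1 in KO over Myc, the 3729 raised ones had a median of 0.06 with 62.2% positive, and the 665 lowered ones a median of -0.03 with 45.1% positive. In KA over WT these medians were 0.10 and -0.10, and in KQ over WT 0.00951 and 0.03.

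A score per mouse, the mean log2 CPM of the 3729 raised genes minus that of the 665 lowered genes, averaged 0.213 ± 0.417 in mutant mice and 0.132 ± 0.249 in WT mice (SD, n = 16 and 9). The difference adjusted for sex was 0.0831 (exact permutation test over mice within sex, two-sided, p = 0.581). Permuting within sex and sample number range gave a difference of 0.158 (exact permutation p = 0.148). By group, the score averaged 0.369 ± 0.316 in KA females, 0.327 ± 0.578 in KQ females and 0.251 ± 0.258 in WT females (SD, n = 4, 3 and 4), and 0.247 ± 0.533 in KA males, -0.00668 ± 0.316 in KQ males and 0.0363 ± 0.219 in WT males (SD, n = 4, 5 and 5). On a scale on which the mean KO mouse of the same sex is at 0% and the mean Myc mouse at 100%, mutant mice lay at 29.9% to 69.6% and WT mice at 43.3% to 66.8%. The 3 mutant mice nearest to KO were KQ female 17 (29.9%), KA male 5 (30.4%) and KA female 16 (37.5%), all with sample numbers 1 to 20, where the lowest WT mouse, WT female 20, was at 43.3%.

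**Figure D5:**
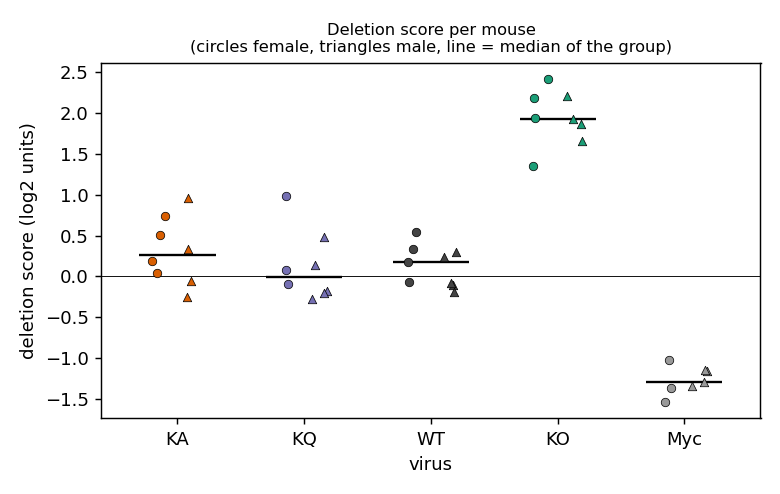
Deletion score of each mouse in log2 units, by virus, with circles for females, triangles for males and a line at the median. KA, KQ and WT mice overlap between KO mice, all above 1.3, and Myc mice, all below -1. The score genes were chosen in the KO and Myc mice, so the separation of those groups follows in part from the choice.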

How the data were processed

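Hippocampal RNA of 40 mice was sequenced as paired-end reads. Per the study's methods and the labels, the authors aligned reads to GRCm39 with Rsubread, counted them per gene with featureCounts and deposited raw counts; a second deposited table of DESeq2-normalized values (DESeq2 1.38.3) was not used. Counts in the 25 replacement libraries totalled 26221299 to 45982772. Genes with a count sum under 20 over 40 libraries were removed, leaving 28449 of 40853. Mutants (KA and KQ) were compared with WT in edgeR 4.0.16 (R 4.3.3, TMM, robust quasi-likelihood fit, sex as a covariate), with Benjamini-Hochberg adjustment over all genes tested. Standard errors were derived as the absolute log2 fold change over the square root of the F statistic. The 95% intervals used these and t quantiles. CPM used TMM library sizes, and log2 CPM a prior count of 2. Single mutants used construct plus sex, and values by sex 6 groups with KA and KQ weighted equally. DESeq2 1.42.0, other filters and scalings, sample number ranges, a choroid plexus covariate and each mouse left out were tried. Scripts were tested on simulated counts. Mice of one group differed by at least 8.16 in chi-square per degree of freedom, so none was counted as a duplicate. The labels do not say whether mice shared litters.

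Named genes were *H2az1*, *H2az2*, genes the study names, the 10 smallest p per direction at 1 CPM or more, called genes, and up to 2 per list with the smallest p. The comparison, lists and genes were chosen with earlier results of these data known. Coordinates came from GENCODE on GRCm39, which held 60 of 63 named genes. featureCounts strand settings are not given in the sources used here, so overlapping genes on opposite strands may share reads. Some genes that the rule names are not reported here.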

Additional observations from a re-analysis of the deposited data

Results flagged for a closer look

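In 12 of 256 groups tested (mutant and WT mice of each sex, for each gene named in the text and the deletion score), the highest or lowest mouse stood apart from its group by Dixon's criterion; chance gives about 1 in 20 groups. Among male mutant mice, KQ male 45 was apart in *Kiss1r* (5.79 CPM), *Doc2a* (9.76 CPM) and *Prox1* (77.0 CPM, the lowest), KA male 5 in *Kcnc1* (86.1 CPM, the lowest) and *Fosb* (8.19 CPM), KA male 25 in *Fkbp5* (62.0 CPM) and KQ male 27 in *Dkkl1* (2.19 CPM). Among female mutant mice, KA female 35 was apart in *Sik1* (17.1 CPM) and KQ female 17 in *Npas4* (5.95 CPM, the lowest). Among WT mice, WT female 40 was apart in *Fkbp5* (55.6 CPM), WT male 10 in *Sik1* (8.18 CPM, the lowest) and WT male 46 in *Morf4l1* (49.2 CPM).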

How the results depend on the processing

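Of the alternatives to the reported values, 2558 stayed the same, 33 reversed the sign, 20 moved, 13 were weaker and 5 stronger. For a gene, staying the same meant the same direction and side of the threshold, and for a count a like number of genes. Most alternatives left out 1 mouse, and nearly all named genes were uncalled in the main fit. Staying uncalled was therefore likely beforehand, and the total is no strong check. The pooled count of 0 genes was 1 with KA and KQ weighted equally (*Rasgef1c*), 12 in sample numbers 1 to 20 alone, 0 in 21 to 40, and 3 with DESeq2. DESeq2 also gave 4 genes in KA over WT, 5 in males and 2 for the difference between sexes. The count of 1 in females was 0 with the sample number range as a covariate, in the fit of all 40 libraries (adjusted p of *Rasgef1c* 0.63) and without the mice above 1000 CPM of *Ttr* (0.376), a setting chosen after seeing the data. Leaving out 1 mouse gave 0 to 1 gene in females and 0 to 0 elsewhere. The median of genes lowered by deletion was -0.029 with a fold threshold, against 0.0107 without one. *H2az1* was 0.00461 in the fit of 40 libraries, 0.0046 with equal weights and 0.00199 in numbers 1 to 20, and -0.0395 to 0.0283 leaving out 1 mouse. In numbers 21 to 40 the log2 fold change reversed for *B2m* (-0.00538), *Th* (0.167), *Gadd45b* (0.0014), *Kiss1r* (0.0253), *Dkk2* (0.346), *Fosb* (0.0792), *Npas4* (0.0283), *Cxcr3* (-0.0714) and *Dkkl1* (0.00649), and for *Dkk2* also without the mice high in *Ttr* (0.0401). Leaving out 1 mouse gave -0.127 to 0.0539 for *Dkk2*, -0.00854 to 0.084 for *Fkbp5* and -0.22 to 0.0103 for *Fosb*. The cause was not tested. No paired analysis was possible because each sample number belongs to 1 mouse.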
